A study of Mus musculus with 2 samples.

Results

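The purine receptors and the ectonucleotidase described here are 8 genes read from the gene columns of both tables: the P2Y receptors P2ry12, P2ry13, P2ry6 and P2ry14, the P2X channels P2rx4 and P2rx7, the adenosine receptor Adora3 and the ectonucleotidase Entpd1. They were chosen by name, and all 8 of 8 had a column in both tables, out of 25120 genes with a column in either. The study profiled sorted cells of the basolateral amygdala of adult C57BL/6 mice in 2 libraries. One group of mice had FGF21, a liver hormone, given daily for 3 days at 1 mg/kg, and the other had vehicle for 3 days. Tissue of 3 mice was pooled into each library, so there was 1 sample per group and no replicate check. Every interval below is a 95% interval that covers counting error only, and no p-value is given. Cells of both pools were dissociated in the presence of actinomycin D, a blocker of transcription, and sorted for the red reporter tdTomato and for viability. The series concerns cells that express KLB, the co-receptor of FGF21. What drives the reporter is not given in the sources used here. Treatment, pool and sequencing lane cannot be told apart.

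Purine receptors sense nucleotides and nucleosides that cells release. P2Y receptors are coupled to G proteins and P2X receptors are cation channels opened by ATP, while adenosine acts on receptors of its own. Ectonucleotidases such as Entpd1 (CD39) trim ATP and ADP to AMP outside the cell and so set which receptors are reached. In the brain P2ry12 is the classic surface marker of resting microglia, the resident immune cells, and steers their processes towards ADP.

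After filtering, 1938 FGF21 cells with a median of 6840 UMIs (unique molecules) and 2336 vehicle cells with a median of 4234 UMIs were used, and 12 barcodes occurred in both libraries. Clusters were made without any gene of the purine list and named from marker lists. Microglia-like cells numbered 819 in the FGF21 and 1357 in the vehicle library. Oligodendrocyte precursor-like cells, which give rise to myelinating cells and are called precursor-like below, numbered 576 in the FGF21 and 377 in the vehicle library. Mural-like cells, which wrap the vessel wall as pericytes or smooth muscle, numbered 39 in the FGF21 and 181 in the vehicle library, and astrocyte-like cells 192 and 99. Most microglia-like FGF21 cells (810) lay in cluster 1 and most microglia-like vehicle cells (1344) in cluster 0. Likewise 531 precursor-like FGF21 cells lay in cluster 2 and 361 precursor-like vehicle cells in cluster 3. Free RNA was estimated from markers found in foreign classes at a median of 34.6% of the library's level in the FGF21 library and 28.7% in the vehicle library, over 14 pairs of class and list, with ranges of 22.0% to 65.1% and 20.5% to 47.5%.

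Of the genes described, 4 lie on chromosome 3 (GRCm38, coordinates of the GENCODE annotation). P2ry14 (59113855 to 59153618), P2ry13 (59207892 to 59210882) and P2ry12 (59216272 to 59262871) lie on the minus strand, all of them within Med12l, a gene of the plus strand from 59005825 to 59318682. The gap between P2ry12 and P2ry13 is 5389 bases and that between P2ry13 and P2ry14 is 54273 bases. Adora3 lies further along the same chromosome, on the plus strand from 105870858 to 105908926, and overlaps Tmigd3. On chromosome 5, P2rx7 (122643911 to 122691432) and P2rx4 (122707544 to 122729738) lie on the plus strand, 16111 bases apart with 1 other gene between them. P2ry6 lies on chromosome 7 from 100937630 to 100974649 on the minus strand and Entpd1 on chromosome 19 from 40612366 to 40741602 on the plus strand. Whether reads were counted by strand is not given in the sources used here. Med12l had 48.9 CPM in FGF21 and 56.2 CPM in vehicle microglia-like cells, and 56.0 and 62.5 CPM in FGF21 and vehicle precursor-like cells, so its level did not follow the microglial level of its P2Y neighbours given below. CPM is a gene's UMI sum in a class, scaled to a total of 1000000. Reads from the stretch that Adora3 shares with Tmigd3 on the same strand cannot be told apart.

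The promoter sequences are shown because P2ry14 was found in other cells than its neighbours P2ry12 and P2ry13. Of the members, 7 of 8 (all but P2ry6) matched RefSeq promoters (GRCm38.p6), with 12 windows of 250 bases before a start site. They were searched on both strands for AGGAAG, the core of many ETS factor sites, and for GAGGAAGT, a longer form that contains it and is known from sites of PU.1, the ETS factor of microglia and macrophages. AGGAAG or its complement was present in 6 of the 12 windows and in 29.5% of all 32851 promoter windows of this length. GAGGAAGT or its complement was present in 1 of the 12, that of Adora3, and in 2.44% of all windows. Below, capitals mark AGGAAG or its complement CTTCCT. The P2ry12 stretch (chr3:59263020-59263049, minus strand) and the P2ry14 stretch (chr3:59153495-59153524, minus strand) hold 30 bases around the match. The P2ry13 (chr3:59210883-59211132, minus strand) and Adora3 (chr3:105904171-105904420, plus strand) windows are whole.
P2ry12: aagctaacaagaAGGAAGttccccagtgac
P2ry14: ttcttgaagatgAGGAAGaactcggcttaa
P2ry13: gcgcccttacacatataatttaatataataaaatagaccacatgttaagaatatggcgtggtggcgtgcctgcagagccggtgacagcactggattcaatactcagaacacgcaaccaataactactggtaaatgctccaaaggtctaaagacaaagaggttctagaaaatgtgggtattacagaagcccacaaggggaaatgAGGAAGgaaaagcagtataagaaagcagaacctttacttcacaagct
Adora3: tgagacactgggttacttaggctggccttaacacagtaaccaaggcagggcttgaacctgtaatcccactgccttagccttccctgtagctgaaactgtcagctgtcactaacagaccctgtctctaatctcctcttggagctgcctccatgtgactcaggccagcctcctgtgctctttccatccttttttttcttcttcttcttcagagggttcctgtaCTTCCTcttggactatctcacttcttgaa
The matches start 52 bases (P2ry12), 20 bases (P2ry14), 47 bases (P2ry13) and 29 bases (Adora3) before the RefSeq start of their window. P2ry14 had further windows, from 59131329, 59131119 and 59130763, that held no match. P2rx7 and Entpd1 had windows both with and without a match. The core was thus present beside starts of microglial genes and beside a start of P2ry14, the gene of the vessel wall, and a match of letters is no binding site.

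P2ry12 was a microglial transcript. It had 3782 CPM (3730 to 3834) in FGF21 and 5099.8 CPM (5042 to 5159) in vehicle microglia-like cells. Of all P2ry12 UMIs in used cells, 87.0% in the FGF21 and 91.5% in the vehicle library came from this class. A UMI was present in 99.9% of microglia-like cells of each library. Per cell, FGF21 microglia-like cells held from 0 to 108 UMIs with a median of 24, and vehicle microglia-like cells from 0 to 66 with a median of 20.

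The other named classes had a low P2ry12 level. Precursor-like cells had 284 CPM in the FGF21 and 462 CPM in the vehicle library, astrocyte-like cells 283 and 526 CPM, and mural-like cells 212 and 419 CPM. Border macrophage-like cells had 405 and 786 CPM, endothelial-like cells 415 and 723 CPM, and oligodendrocyte-like cells 284 and 628 CPM. A UMI was seen in 87.8% of FGF21 and 93.4% of vehicle precursor-like cells, at median depths of 8900 and 6435 UMIs. Erythroid-like cells, which should lack the gene, had one in 65.0% of 20 FGF21 and 52.2% of 46 vehicle cells, at median depths of 2256 and 1989 UMIs. At an equal 2000 UMIs a cell the shares were 42.5% and 65.1% of precursor-like cells and 45.5% and 47.8% of the 11 FGF21 and 23 vehicle erythroid-like cells deep enough. Per microglia marker UMI, precursor-like cells held 0.394 times (0.374 to 0.416) the P2ry12 of microglia-like cells in the FGF21 and 0.502 times (0.473 to 0.533) in the vehicle library. P2ry12 outside microglia-like cells was thus no more abundant than the microglial transcripts it came with. The unnamed cluster 6, led by the RNA Bc1 and shallow at median depths of 2572.5 and 1614 UMIs, had 2000.1 CPM in 96 FGF21 cells and 2849 CPM in 77 vehicle cells, also below the microglial proportion at 0.866 times (0.799 to 0.939) and 0.871 times (0.794 to 0.954).

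**Figure D1:**
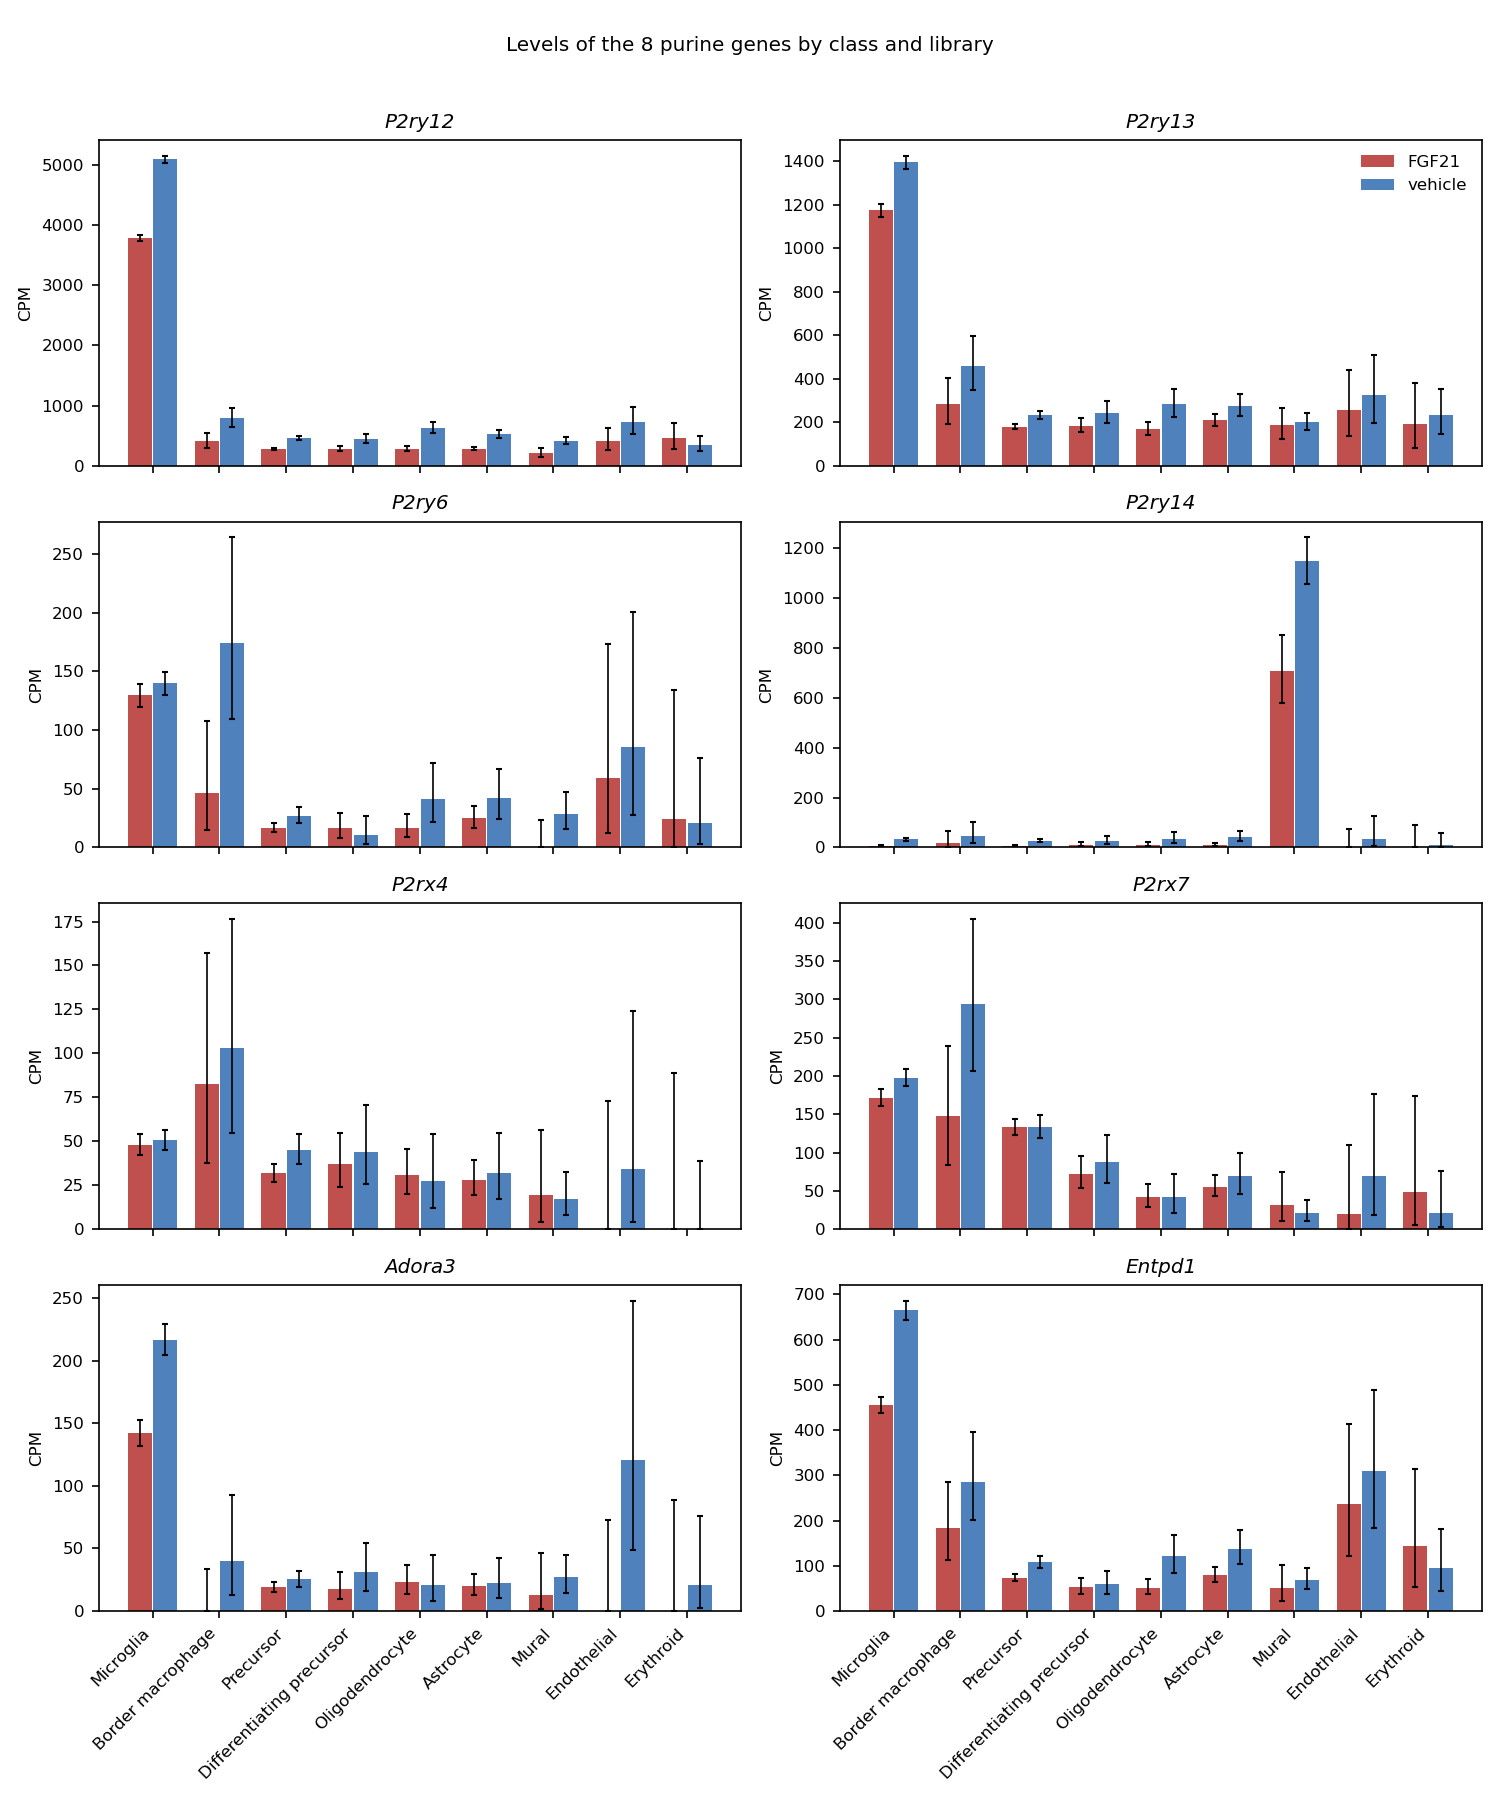
Level of each gene in CPM in 9 classes of the FGF21 (red) and vehicle (blue) library, with exact Poisson 95% intervals. P2ry12, P2ry13, Adora3 and Entpd1 are highest in microglia-like cells, P2ry14 stands alone in mural-like cells at 705 and 1147 CPM, and P2rx7 stays high in precursor-like cells.

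P2ry13, a second ADP receptor, had the same pattern at 1174 CPM (1145 to 1203) in FGF21 and 1395 CPM (1364 to 1426) in vehicle microglia-like cells. A UMI was seen in 98.9% of FGF21 and 98.2% of vehicle microglia-like cells, against 25.0% and 37.0% of erythroid-like cells at the lower depths given above. In precursor-like cells it had 179 and 233 CPM in the FGF21 and vehicle libraries, which was 0.799 times (0.745 to 0.857) and 0.927 times (0.851 to 1.01) the proportion to microglia markers seen in microglia-like cells. In mural-like cells the proportion was 0.923 times (0.618 to 1.33) in the FGF21 and 0.868 times (0.709 to 1.05) in the vehicle library. P2ry13 in these classes was not above its proportion in microglia-like cells, and the FGF21 precursor-like interval lay below it.

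P2ry6, a receptor for UDP that drives microglial uptake of debris, had 129.5 CPM (120.1 to 139.5) in FGF21 and 139.8 CPM (130.3 to 149.8) in vehicle microglia-like cells. It was seen in 53.2% of FGF21 and 39.8% of vehicle microglia-like cells, and at 2000 UMIs a cell in 21.1% and 23.4%, against 1 of 20 FGF21 and 2 of 46 vehicle erythroid-like cells at full depth. The border macrophage-like cells, resident macrophages of the meninges and vessels, formed a cluster that was also led by the neutrophil genes S100a8 and S100a9. They had 46.0 CPM (5 UMIs in 26 cells) in the FGF21 and 175 CPM (22 UMIs in 46 cells) in the vehicle library. Over microglia-like cells, that level was 0.355-fold (0.115 to 0.833) in the FGF21 and 1.25-fold (0.778 to 1.904) in the vehicle library, and the FGF21 over vehicle ratio within them was 0.264 (0.0780 to 0.713). No P2ry6 UMI was found in the 39 FGF21 mural-like cells, where the upper limit of the level was 23.7 CPM, against 28.7 CPM (16.1 to 47.4) in the 181 vehicle mural-like cells.

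Adora3, the A3 adenosine receptor, had 142 CPM (132 to 152) in FGF21 and 217 CPM (205 to 229) in vehicle microglia-like cells. It was not detected in FGF21 border macrophage-like cells, with an upper limit of 33.9 CPM, and had 39.7 CPM (12.9 to 92.6) in vehicle border macrophage-like cells. Endothelial-like cells had 0 UMIs in 15 FGF21 cells and 7 UMIs in 31 vehicle cells. In precursor-like cells it had 18.9 CPM in the FGF21 and 25.3 CPM in the vehicle library. Estimated free RNA alone would give 122% and 150% of those UMIs in the FGF21 and vehicle libraries, so Adora3 could not be told from background there.

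Entpd1, which trims ATP and ADP, had 455 CPM (437 to 474) in FGF21 and 665 CPM (644 to 686) in vehicle microglia-like cells. Of the named classes, endothelial-like cells had the next highest level in each library, with 237 CPM (12 UMIs in 15 cells) in the FGF21 and 309.7 CPM (18 UMIs in 31 cells) in the vehicle library. Per microglia marker UMI that was 2.57 times (1.32 to 4.49) the microglial proportion in the FGF21 and 1.76 times (1.04 to 2.78) in the vehicle library, so endothelial-like cells held more Entpd1 than their microglial transcripts would bring. Border macrophage-like cells had 184 CPM (20 UMIs) in the FGF21 and 286 CPM (36 UMIs) in the vehicle library. Free RNA would give 41.9% and 41.5% of those UMIs. Mural-like cells stayed below both classes, at 51.3 and 68.9 CPM in the FGF21 and vehicle libraries. The endothelial over mural ratio was 4.62 (1.74 to 13.0) in the FGF21 and 4.49 (2.40 to 8.12) in the vehicle library. Within the vessel wall, Entpd1 was thus higher in endothelial-like than in mural-like cells, on few cells and UMIs.

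**Figure D2:**
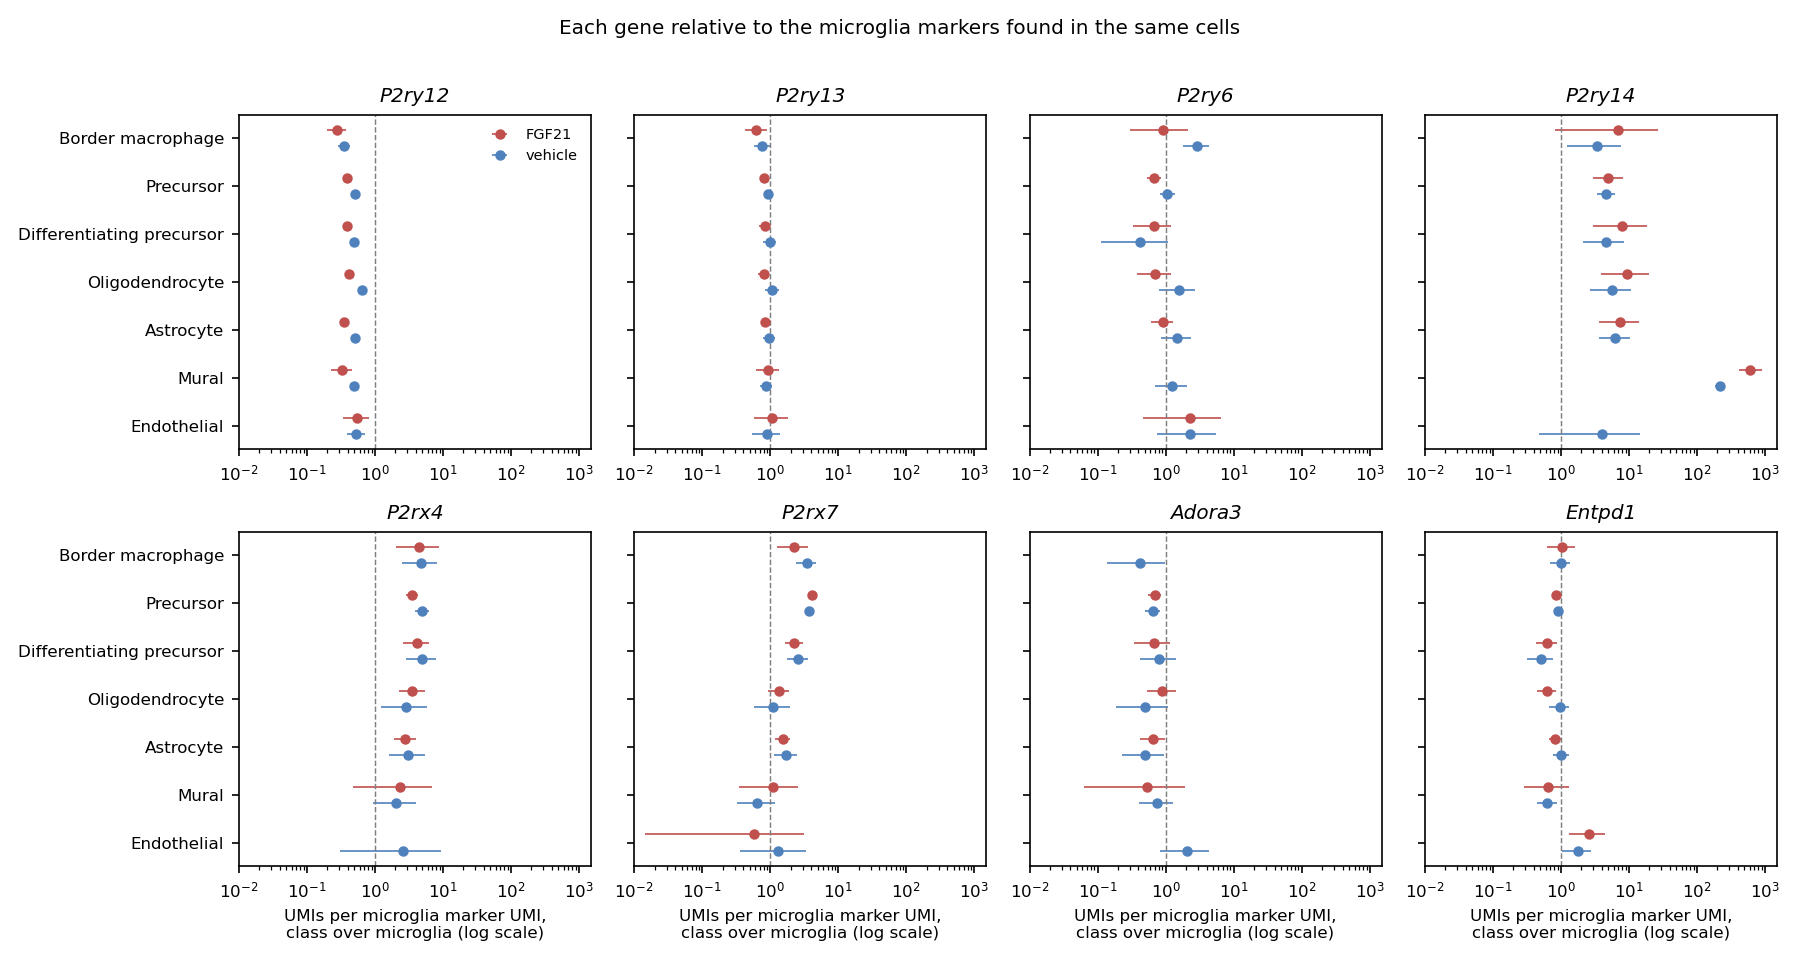
UMIs of each gene per UMI of the 12 microglia markers in a class, divided by the same in microglia-like cells (log scale), for the FGF21 (red) and vehicle (blue) library with exact 95% intervals. A value of 1 (dashed) is the proportion found in microglia-like cells. P2ry12 lies below 1 in every class shown, P2rx7 and P2rx4 lie above it in precursor-like cells, and P2ry14 in mural-like cells lies furthest above. Classes with 0 UMIs are not drawn.

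P2ry14, a receptor for UDP-glucose and other UDP-sugars, was the gene of the vessel wall. Mural-like cells had 705 CPM (580 to 850; 110 UMIs) in the FGF21 and 1147 CPM (1057 to 1243; 599 UMIs) in the vehicle library. A UMI was present in 76.9% of FGF21 and 77.9% of vehicle mural-like cells, and in 0 of 20 FGF21 erythroid-like cells, which allows a share of cells with a UMI of up to 15.0% at this depth, and in 1 of 46 vehicle erythroid-like cells. Median depths were 3789 and 2776 UMIs for mural-like cells and 2256 and 1989 UMIs for erythroid-like cells. Per cell, FGF21 mural-like cells held from 0 to 10 UMIs with a median of 2, and vehicle mural-like cells from 0 to 16 with a median of 3. The top cell held 9.09% of the class UMIs in the FGF21 and 2.67% in the vehicle library. Although mural-like cells were 2.01% of used cells in the FGF21 and 7.75% in the vehicle library, they gave 110 of 220 P2ry14 UMIs in the FGF21 and 599 of 910 in the vehicle library.

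Mural-like over microglia-like, the P2ry14 level was 103-fold (70.1 to 153) in the FGF21 and 35.6-fold (30.2 to 42.2) in the vehicle library. Over precursor-like cells it was 109-fold (73.1 to 166) and 42.7-fold (33.1 to 55.8). Endothelial-like cells had 0 UMIs in 15 FGF21 cells, which allows up to 20.0% of such cells to hold a UMI, and 2 UMIs in 31 vehicle cells. Endothelial-like over mural-like, the vehicle ratio was 0.0300 (0.00362 to 0.109).

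Mural-like cells fell into 3 subclusters. Subcluster 1 had the most smooth muscle markers, with 15394 CPM in the FGF21 and 3667 CPM in the vehicle library, beside 17657 and 28342 CPM of pericyte markers. Its P2ry14 level was 414 CPM in the FGF21 and 595 CPM in the vehicle library. Subcluster 0 was rich in pericyte markers, with 33088 and 34717 CPM, and had 921 CPM of P2ry14 in the FGF21 and 1327 CPM in the vehicle library. Subcluster 2, with 28507 and 33847 CPM of pericyte markers, had 964 CPM (4 FGF21 cells) and 1314 CPM (46 vehicle cells). P2ry14 was thus lower in subcluster 1 than in the other two in each library. Subcluster 1 held 35.9% (21.2 to 52.8) of FGF21 and 23.2% (17.3 to 30.0) of vehicle mural-like cells, with intervals that overlapped.

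In the other large classes P2ry14 was low, and both it and pericyte transcripts were lower in the FGF21 library. Microglia-like cells had 6.88 CPM (4.84 to 9.48) in the FGF21 and 32.2 CPM (27.7 to 37.2) in the vehicle library, beside 180.1 and 651 CPM of summed pericyte markers (without Cspg4, which precursors express). Per pericyte marker UMI, microglia-like cells held 1.34 times (0.900 to 1.97) the P2ry14 of mural-like cells in the FGF21 and 1.37 times (1.15 to 1.62) in the vehicle library. Precursor-like cells held 1.29 times (0.847 to 1.92) and 1.10 times (0.842 to 1.42). The vehicle microglia-like interval lay above the mural proportion. So did that of FGF21 oligodendrocyte-like cells, at 2.55 times (1.14 to 5.03; 9 UMIs). Fibroblast-like cells held less, at 0.398 times (0.0476 to 1.47; 2 UMIs) in the FGF21 and 0.358 times (0.131 to 0.783; 6 UMIs) in the vehicle library. Free RNA would give 78.4% of the P2ry14 UMIs of FGF21 and 76.4% of those of vehicle microglia-like cells.

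**Figure D3:**
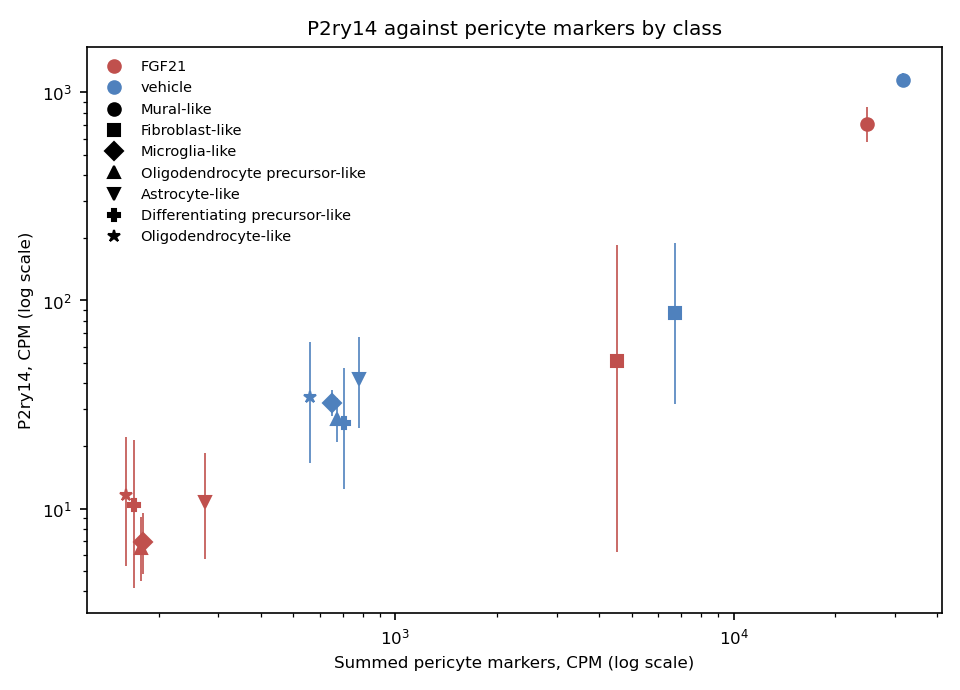
P2ry14 level against the summed pericyte markers without Cspg4, both in CPM on log scales, for 7 classes (shapes) of the FGF21 (red) and vehicle (blue) library, with exact Poisson 95% intervals of P2ry14. Mural-like cells stand at the upper right with 705 and 1147 CPM, and the glial classes of each library lie together at the lower left, the FGF21 ones lower on both axes.

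P2rx7, the ATP-gated channel that large ATP releases open, was shared by microglia-like and precursor-like cells. It had 172 CPM (161 to 183) in FGF21 and 198 CPM (186 to 209) in vehicle microglia-like cells, and 133 CPM (123 to 143) in FGF21 and 133 CPM (120 to 149) in vehicle precursor-like cells. Precursor-like over microglia-like, the ratio was 0.776 (0.701 to 0.857) in the FGF21 and 0.676 (0.596 to 0.764) in the vehicle library. Per microglia marker UMI, precursor-like cells held 4.07 times (3.68 to 4.50) the microglial P2rx7 in the FGF21 and 3.74 times (3.30 to 4.23) in the vehicle library, and free RNA would give 33.5% and 33.0% of their UMIs. At 2000 UMIs a cell, 25.2% of 572 FGF21 and 20.1% of 373 vehicle precursor-like cells had a P2rx7 UMI, against 63.9% and 49.6% at full depth. Erythroid-like cells had one in 2 of 20 FGF21 and 2 of 46 vehicle cells.

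Along the lineage the P2rx7 level was lower in later cells. Differentiating precursor-like cells had 72.6 CPM (53.7 to 96.0) in the FGF21 and 88.0 CPM (61.0 to 123) in the vehicle library, or 0.546 times (0.400 to 0.730) and 0.659 times (0.449 to 0.940) the precursor-like level. Oligodendrocyte-like cells had 42.4 CPM (29.2 to 59.6) and 41.4 CPM (21.4 to 72.4), or 0.319 times (0.218 to 0.452) and 0.310 times (0.159 to 0.549). Free RNA would give 105% of the UMIs of FGF21 and 106% of those of vehicle oligodendrocyte-like cells, so P2rx7 could not be told from background there. The same estimate gave 202% and 138% of their P2ry12 UMIs, more than were counted, so it can be too high. Precursor-like over mural-like, the ratio was 4.15 (1.77 to 12.8) in the FGF21 and 6.34 (3.50 to 12.8) in the vehicle library. Border macrophage-like cells had 147 CPM (16 UMIs) in the FGF21 and 294 CPM (37 UMIs) in the vehicle library. In the vehicle library that level was above microglia-like cells, by 1.49-fold (1.04 to 2.06), and in the FGF21 library the ratio was 0.858 (0.489 to 1.40).

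P2rx4, the ATP-gated channel of lysosomes and the cell surface, was low and spread over glia. Microglia-like cells had 47.8 CPM (42.1 to 54.0) in the FGF21 and 50.5 CPM (44.8 to 56.7) in the vehicle library. Precursor-like cells had 31.8 CPM (27.1 to 37.1) and 44.9 CPM (37.0 to 54.0), with 41.0% and 28.7% of their UMIs matched by free RNA. Per microglia marker UMI that was 3.50 times (2.85 to 4.27) the microglial proportion in the FGF21 and 4.93 times (3.93 to 6.15) in the vehicle library. Differentiating precursor-like cells had 37.0 and 44.0 CPM and did not differ from precursor-like cells beyond counting error, with ratios of 1.16 (0.731 to 1.78) in the FGF21 and 0.980 (0.552 to 1.64) in the vehicle library. The highest level was that of border macrophage-like cells, with 82.8 CPM (9 UMIs) in the FGF21 and 103 CPM (13 UMIs) in the vehicle library. The border macrophage over microglia ratio was 1.73 (0.784 to 3.34) in the FGF21 and 2.04 (1.07 to 3.55) in the vehicle library. No erythroid-like cell had a P2rx4 UMI, which allows a UMI in up to 15.0% of 20 FGF21 and 6.52% of 46 vehicle cells and sets no limit on cells that express the gene.

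**Figure D4:**
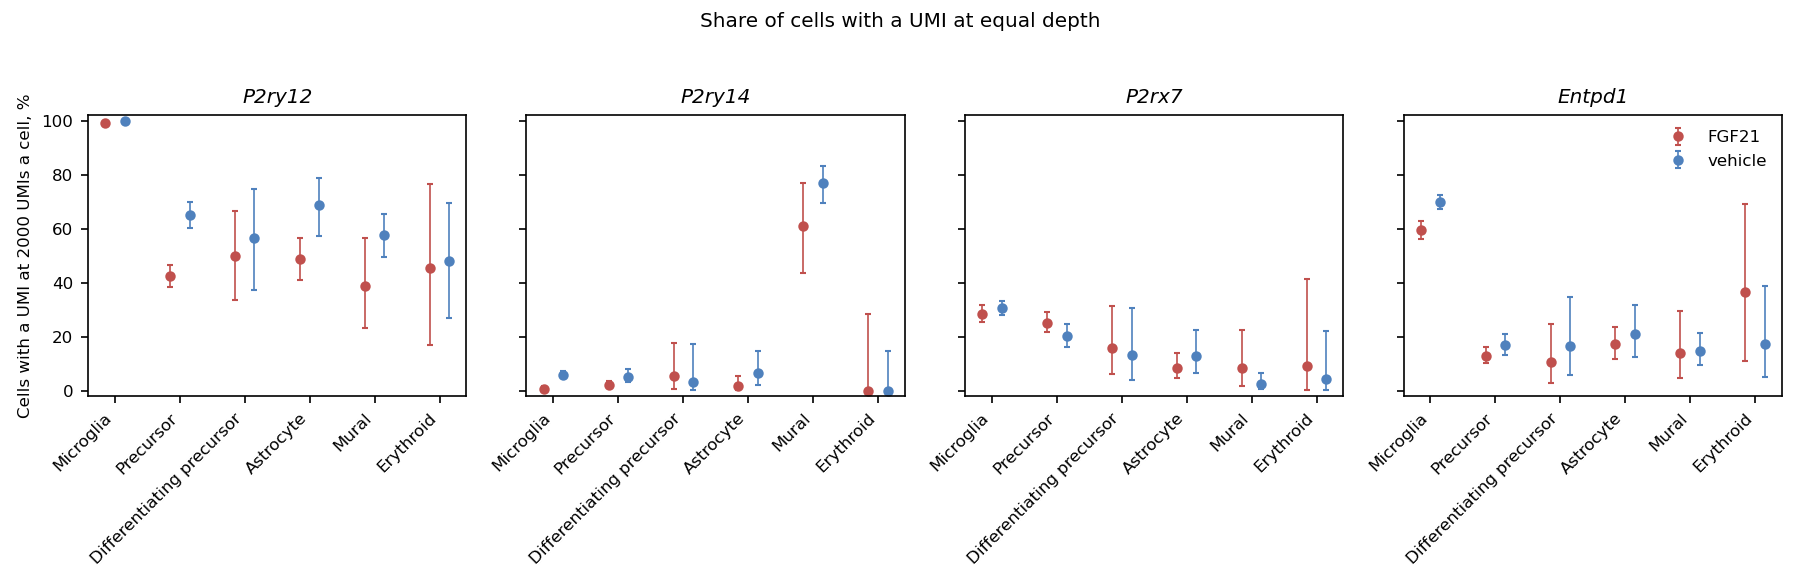
Share of cells with at least 1 UMI of P2ry12, P2ry14, P2rx7 or Entpd1 once every cell was thinned to 2000 UMIs, in 6 classes of the FGF21 (red) and vehicle (blue) library, with exact Clopper-Pearson 95% intervals. P2ry12 reaches 99.0% and 99.9% of microglia-like cells but is also seen in 45.5% and 47.8% of erythroid-like cells, whereas P2ry14 stays with mural-like cells at 61.1% and 76.9%.

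Between the libraries, the question was whether the receptor levels of a class differed after FGF21. In microglia-like cells (mostly cluster 1 in the FGF21 and cluster 0 in the vehicle library), all 8 members had a ratio of FGF21 over vehicle below 1, except that P2ry6 (1.04) and P2rx4 (1.01) were above 1 with free RNA subtracted, and P2rx4 also in thinned cells (1.01) and in cells with few pericyte marker UMIs (1.02). Of all genes tested, 46.0% had a ratio below 1. At least 1.5-fold lower were 2 of 8 members, P2ry14 and Adora3, and 0 were higher. Among the 11326 genes tested, those with 50 UMIs or more over both libraries, 17.2% differed by 1.5-fold or more, 12.2% higher and 5.02% lower in the FGF21 library. Of those called, 70.8% were higher in the FGF21 library, and 48.3% after free RNA was subtracted. The median log2 ratio was -0.34 over the members and 0.04 over all genes tested.

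Among the ADP receptors, P2ry12 had a ratio of 0.742 (0.728 to 0.755) in microglia-like cells, with 20352 UMIs in the FGF21 and 29290 in the vehicle library. P2ry13 had a ratio of 0.841 (0.814 to 0.870). Both stayed below 1 under all 9 alternatives, from 0.723 to 0.826 for P2ry12 and from 0.821 to 0.929 for P2ry13. The UDP receptor P2ry6 had a ratio of 0.926 (0.836 to 1.03), which included equality.

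Entpd1 had a ratio of 0.685 (0.651 to 0.721) in microglia-like cells, just short of the 1.5-fold line, and Adora3 one of 0.654 (0.597 to 0.717), just past it. Under the alternatives Adora3 ranged from 0.638 to 0.724 and Entpd1 from 0.668 to 0.755, so both remained below 1. Adora3 was no longer 1.5-fold lower with free RNA subtracted (0.724), in cells thinned to 2000 UMIs (0.692), with cells weighted equally (0.690) or in cells with few pericyte marker UMIs (0.677). The channels were closer to equality, with 0.868 (0.795 to 0.948) for P2rx7 and 0.946 (0.797 to 1.12) for P2rx4.

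P2ry14 had the lowest ratio of the members in microglia-like cells, 0.213 (0.146 to 0.305), with 37 UMIs in the FGF21 and 185 in the vehicle library. Summed pericyte markers had a ratio of 0.277 (0.258 to 0.297) in the same cells. In precursor-like cells the ratio was 0.241 (0.154 to 0.372) for P2ry14 and 0.262 (0.241 to 0.284) for the pericyte markers. With free RNA subtracted the P2ry14 ratio was 0.213 in microglia-like and 0.533 in precursor-like cells, and in thinned cells 0.192 and 0.362.

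The 12 microglia markers were themselves lower in FGF21 microglia-like cells. They summed to 47140 CPM in the FGF21 and 57240 CPM in the vehicle library, a ratio of 0.824 (0.819 to 0.828), and all 12 of 12 had ratios below 1, from 0.727 for Fcrls to 0.924 for Cx3cr1. Oligodendrocyte, precursor and astrocyte markers had higher sums in the same FGF21 cells, with 1585.5 CPM in the FGF21 and 773 CPM in the vehicle library for oligodendrocyte, 1609 and 1028 CPM for precursor, and 1361 and 872 CPM for astrocyte markers, and their part in the member ratios was not tested beyond the subtraction of free RNA. Per microglia marker UMI, the FGF21 over vehicle ratio was 0.900 (0.884 to 0.917) for P2ry12, 1.02 (0.988 to 1.06) for P2ry13, 1.12 (1.01 to 1.25) for P2ry6 and 1.05 (0.965 to 1.15) for P2rx7. It was 0.795 (0.725 to 0.870) for Adora3 and 0.832 (0.790 to 0.875) for Entpd1. It was 1.15 (0.967 to 1.36) for P2rx4 and 0.259 (0.177 to 0.371) for P2ry14. P2ry12, Adora3 and Entpd1 were thus lower than the summed microglia markers, and P2ry13 was not set apart from the sum. The P2ry12 ratio of 0.742 lay within the range of the single markers, near Csf1r (0.750) and C1qc (0.759). P2ry14 was lower too, but free RNA would give 78.4% of its FGF21 and 76.4% of its vehicle UMIs in these cells.

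The few microglia-like cells that clustered with the other library can be set beside the P2ry12 values. The 8 FGF21 cells in cluster 0 had 3385 CPM (2718 to 4165) of P2ry12, against 5108 CPM (5049 to 5167) in the 1344 vehicle cells of that cluster. In cluster 1, the 810 FGF21 cells had 3784 CPM (3732 to 3837) and the 8 vehicle cells had 4427 CPM (3788 to 5143). P2ry12 was lower in the FGF21 cells of either cluster, with intervals that overlapped in cluster 1. The other members had 0 to 39 UMIs in the 8 FGF21 cells of cluster 0. Higher there than in vehicle cells, with intervals that overlapped, were P2ry13 (1483 against 1394 CPM), P2ry6 (304 against 139.6 CPM) and P2rx4 (152 against 50.9 CPM). P2rx7 had 0 UMIs (upper limit 140 CPM) against 199 CPM (188 to 211) in vehicle cells, with intervals apart. Entpd1, Adora3 and P2ry14 were lower, with intervals that overlapped. In cluster 1, P2ry13 was lower in FGF21 cells, at 1171 CPM (1142 to 1200) against 1683 CPM (1299 to 2145). P2rx4 and P2rx7 were higher there, and P2ry6, P2ry14, Adora3 and Entpd1 lower, with intervals that overlapped.

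**Figure D5:**
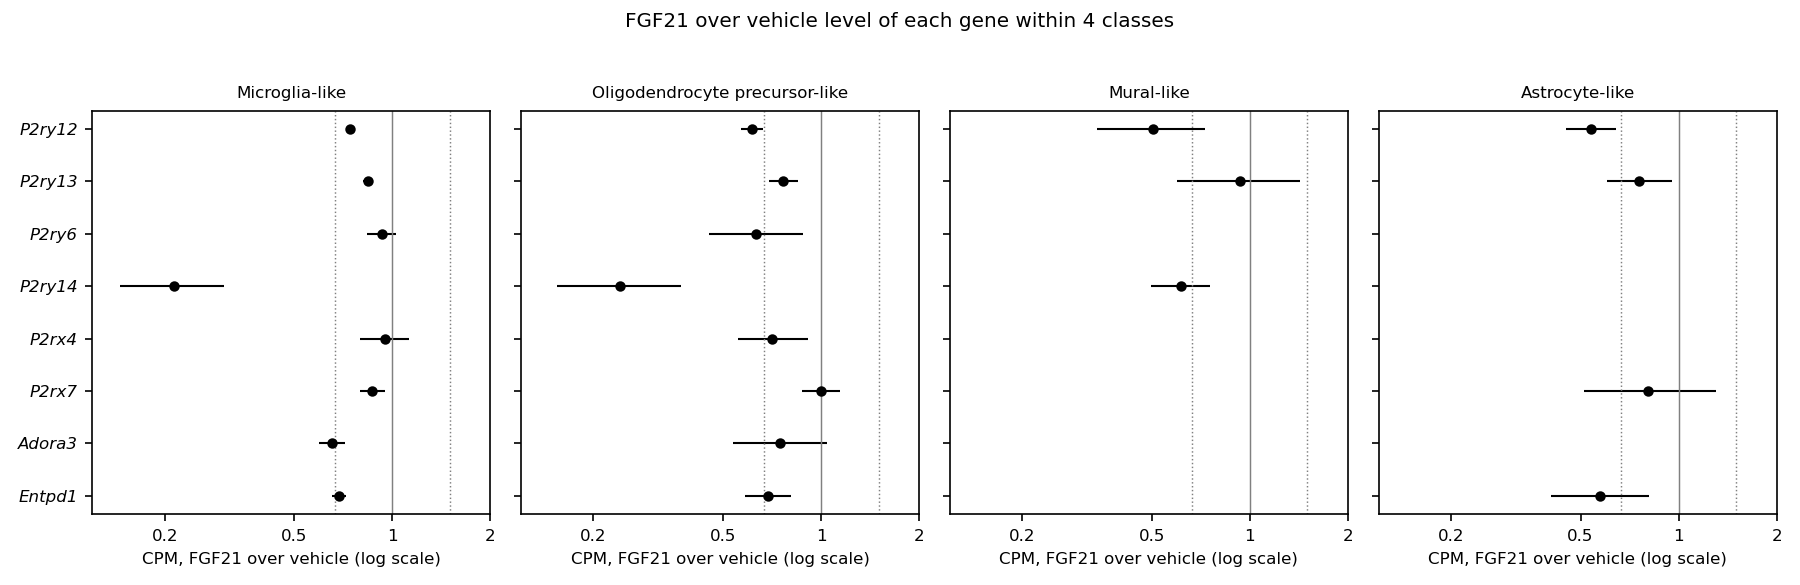
CPM in the FGF21 over the vehicle library (log scale) of each gene with at least 50 UMIs in 4 classes, with exact 95% intervals. The solid line marks equality and the dotted lines a 1.5-fold difference. P2rx7 in precursor-like cells lies on the solid line at 0.997 and the other points lie left of it, while P2ry14 lies furthest left, at 0.213 in microglia-like and 0.241 in precursor-like cells.

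In precursor-like cells (mostly cluster 2 in the FGF21 and cluster 3 in the vehicle library) P2rx7 did not differ beyond counting error, at a ratio of 0.997 (0.873 to 1.14) and from 0.856 to 1.08 under 9 alternatives. P2rx4 had a ratio of 0.709 (0.554 to 0.910), with 162 UMIs in the FGF21 and 112 in the vehicle library, and from 0.640 to 0.887 under 9 alternatives. The other 6 members were mostly matched by free RNA there, at 83.1% or more in the FGF21 and 91.7% or more in the vehicle library. At least 1.5-fold lower were 3 of 8 members (P2ry12, P2ry6 and P2ry14) and 0 were higher, where 10.4% of 11410 genes were that far apart, 5.51% higher and 4.89% lower. P2ry12 was short of 1.5-fold in cells with few pericyte marker UMIs (0.679). P2ry6, at 0.629 (0.452 to 0.879), was 0.417 in those cells, and no FGF21 UMI was left to it once free RNA was subtracted.

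In mural-like cells, P2ry14 had a ratio of 0.615 (0.497 to 0.755), past the 1.5-fold line. Within the subclusters it was 0.694 (0.528 to 0.902) in subcluster 0, 0.696 (0.434 to 1.09) in subcluster 1 and 0.734 (0.393 to 1.27) in subcluster 2, none of which reached 1.5-fold. Without subcluster 1, an alternative chosen after the data were seen, it was 0.702 (0.549 to 0.887). Per pericyte marker UMI it was 0.786 (0.635 to 0.964). It was also short of 1.5-fold under the stricter cell filter (0.727), with free RNA subtracted (0.680) and in cells with few microglia marker UMIs (0.783). Pericyte markers (without Cspg4) were also lower in FGF21 mural-like cells, at 24822 CPM against 31721 CPM in vehicle cells. Smooth muscle markers went the other way in subcluster 1, at 15394 CPM in FGF21 and 3667 CPM in vehicle cells. In subclusters 0 and 2 they were lower in FGF21 cells. The part of these markers in the P2ry14 ratio was not tested beyond the ratios given here. In all, 3 of 8 members had 50 UMIs or more, and 2 were at least 1.5-fold lower (P2ry12 and P2ry14), where 23.6% of 3024 genes were that far apart, 9.85% higher and 13.7% lower. P2ry12 there, at 0.505 (0.339 to 0.730), was fully matched by free RNA, at 271% in the FGF21 and 207% in the vehicle library, and its ratio was 1.22 with doublets kept.

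In astrocyte-like cells, 4 of 8 members had 50 UMIs or more. At least 1.5-fold lower were 2 (P2ry12 and Entpd1), where 19.2% of 6128 genes were that far apart, 10.7% higher and 8.5% lower. Free RNA would give 203% and 165% of the P2ry12 UMIs, and 97.9% and 86.1% of the Entpd1 UMIs, in the FGF21 and vehicle libraries. The Entpd1 ratio of 0.573 (0.407 to 0.811) became 0.0923 with free RNA subtracted. In the remaining classes 12 ratios of members had 50 UMIs or more behind them, and all 12 were below 1, from 0.426 (0.264 to 0.690) for Entpd1 in oligodendrocyte-like cells to 0.896 (0.516 to 1.58) for Entpd1 in differentiating precursor-like cells. They ranked between the 0.676 and the 32.8 percentile of the genes tested in their class, and free RNA matched 30.3% to 206% of the FGF21 and 15.0% to 199% of the vehicle UMIs. For P2ry12 it would give more than all UMIs in each of these classes and both libraries. The share of all tested genes below 1 was not worked out for these classes.

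The wider purinergic list held 38 further genes, among them other receptors, nucleotide-cleaving enzymes, adenosine transporters and release channels. The genes named are those at least 1.5-fold apart and the 3 with the most UMIs of a class. In microglia-like cells 17 had 50 UMIs or more, 6 of which were at least 1.5-fold higher (Enpp2, Adora1, Adk, Enpp1, P2ry1 and Entpd2) and 0 lower. For 5 of these, free RNA would give 90.0% or more of the UMIs of the FGF21 library. Enpp1, which cleaves ATP to AMP, was the other, at 33.5%, with 11.3 CPM in FGF21 and 7.49 CPM in vehicle microglia-like cells (ratio 1.51, 1.01 to 2.29). The lysophosphatidylserine receptor Gpr34, a relative of the P2Y receptors, had 774 CPM in FGF21 and 998 CPM in vehicle microglia-like cells (ratio 0.775, 0.745 to 0.807). Slc29a3, a nucleoside transporter of lysosomes, had 435 CPM in FGF21 and 482 CPM in vehicle microglia-like cells (ratio 0.904, 0.855 to 0.955).

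In precursor-like cells 21 of the 38 had 50 UMIs or more, with 1 at least 1.5-fold higher (Enpp3, ratio 1.89, 1.01 to 3.78) and 2 lower (Gpr17 and Gpr34). Gpr17, a P2Y-like receptor of precursors on the way to myelination, had 715 CPM in FGF21 and 1148 CPM in vehicle precursor-like cells, a ratio of 0.623 (0.593 to 0.654). Differentiating precursor-like over precursor-like, Gpr17 was 4.73-fold (4.49 to 4.99) in the FGF21 and 3.72-fold (3.49 to 3.95) in the vehicle library, the opposite direction to P2rx7. Oligodendrocyte-like over precursor-like it was 0.173-fold (0.139 to 0.211) and 0.0632-fold (0.0390 to 0.0967). Gpr34 in precursor-like cells was matched by free RNA at 196% in the FGF21 and 183% in the vehicle library. Adora1, the A1 adenosine receptor, had 395 CPM in FGF21 and 373 CPM in vehicle precursor-like cells (ratio 1.06, 0.979 to 1.15). Enpp2, the secreted enzyme autotaxin, had 875 CPM in FGF21 and 804 CPM in vehicle precursor-like cells (ratio 1.09, 1.03 to 1.15).

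Mural-like cells held a second receptor of the list. Adora2a, an adenosine receptor that raises cyclic AMP, had 115 CPM (68.4 to 182; 18 UMIs) in FGF21 and 149 CPM (118 to 186; 78 UMIs) in vehicle mural-like cells, with free RNA at 0.764% and 2.03% of those UMIs. Mural-like over microglia-like, its level was 88.7-fold (35.4 to 251) in the FGF21 and 61.3-fold (34.4 to 117) in the vehicle library. Microglia-like cells held only 7 FGF21 and 14 vehicle Adora2a UMIs, of which free RNA would give 67.8% and 124%. Its FGF21 over vehicle ratio in mural-like cells was 0.773 (0.435 to 1.30). Adk, which returns adenosine to AMP inside the cell, had 173 CPM in FGF21 and 169 CPM in vehicle mural-like cells. Of the 4 further genes tested there, 1 was at least 1.5-fold higher (Enpp2, with free RNA at 107% in the FGF21 and 131% in the vehicle library) and 0 were lower.

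In astrocyte-like cells 10 of the 38 were tested, with 1 at least 1.5-fold higher (Enpp2) and 1 lower (Gpr34), each matched by free RNA at more than its own UMIs. Entpd2, an ectonucleotidase that turns ATP into ADP, had 153 CPM in FGF21 and 221 CPM in vehicle astrocyte-like cells, a ratio of 0.694 (0.536 to 0.903), with free RNA at 4.84% and 1.73% of the UMIs. Adk had 188 CPM in FGF21 and 189 CPM in vehicle astrocyte-like cells. Cleavage enzymes thus differed by class, with Entpd1 in microglia-like and, on few UMIs, endothelial-like and border macrophage-like cells, and Entpd2 in astrocyte-like cells.

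Across 20 combinations of class and library with at least 20 cells, the genes whose level most resembled each member were found among 11123 genes by Pearson's r of log2(CPM + 1). These points share cells' free RNA and depth, and r is given as a description. Among the genes most like P2ry12 were Olfml3 (0.983) and Selplg (0.979), and among those most like P2ry13 were P2ry12 (0.978) and Cx3cr1 (0.978). P2ry14 was most like Slc6a20a (0.944), Rgs5 (0.939) and Atp2a3 (0.930), of which Rgs5 is a pericyte marker. Entpd1 was most like Casp8 (0.947), Ikzf1 (0.940) and Ctss (0.932), and Adora3 was most like Accs (0.926), Spty2d1 (0.893) and Zcwpw1 (0.878). P2rx7 was most like Sgpl1 (0.886), Asah1 (0.866) and Ogfrl1 (0.865), P2rx4 most like Sh3gl1 (0.974), Zfp277 (0.972) and Osbpl8 (0.965), and P2ry6 most like Rab3il1 (0.880), Syk (0.876) and Il7r (0.873).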

How the data were processed

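Single-cell 3′ libraries were made on the BD Rhapsody platform with 1 library per treatment, and the deposited tables give counts of UMIs per cell and gene, not normalized by the authors. Per the submitters' processing notes the BD WTA Rhapsody Analysis Pipeline 1.9.1 and GRCm38 were used; how the authors called cells, and whether strand was used, is not given in the sources used here. Barcodes with at least 500 UMIs, 300 genes and at most 25% mitochondrial UMIs were kept; 504 FGF21 and 571 vehicle barcodes were left out. Scrublet in scanpy 1.11.5 marked 0.72% of barcodes as doublets, which were removed. Leiden clusters (resolution 1.0, 2000 variable genes, 30 components) were named by the marker list with the highest mean score, 0.5 above the next, by a naming rule set after the clusters were seen. Counts were summed per class and library. Ratios are given with exact conditional-binomial intervals, and a gene was called at 1.5-fold on log2 of summed UMIs plus 0.5 over the class total. The ratio step was first tested on simulated data. The free RNA of a gene in a class is the library's median foreign marker share times the gene's library level. Where it exceeds all UMIs counted, the estimate overshoots for that gene and class. Intervals of levels, shares and ratios cover counting error only. Alternatives were another denominator, median centring, equal weight per cell, a stricter cell filter, doublets kept, free RNA subtracted, a coarser clustering, cells with few marker UMIs of another type, thinned cells, no minimum of UMIs and a fold of 2. The members, the purine list, the markers and the tests were chosen with earlier results of these data known. Sequences are from RefSeq and gene coordinates from GENCODE vM21, with Python 3.11.15 and scipy 1.17.1. Named genes are all 8 members and, of the wider list, those at least 1.5-fold apart or the 3 with the most UMIs of a class. Of the 3 genes most like each member, some are not reported here.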

Additional observations from a re-analysis of the deposited data

How the results depend on the processing

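With free RNA subtracted, no ratio could be formed for P2ry12, P2ry13, Adora3 and Entpd1 in precursor-like cells. The same held for P2ry12 and P2ry13 in mural-like cells and for P2ry12 in astrocyte-like cells. There the free RNA estimate took up all UMIs of both libraries, and these cases are not among the recomputed ratios. Of 201 recomputed ratios of single members, 181 moved by less than their counting interval. In all, 10 lay on the other side of 1, namely P2ry6 and P2rx4 in microglia-like, P2rx7 in precursor-like and P2ry13 (1.15 and 1.43) in mural-like cells, and P2ry12 in mural-like cells, which alone had been 1.5-fold apart, at 1.22 with doublets kept against 0.505; the cause was not tested. With no minimum of UMIs, 5261 genes were at least 1.5-fold apart in microglia-like, 4128 in precursor-like, 5100 in mural-like and 4874 in astrocyte-like cells, against 1945, 1187, 713 and 1178. At 2-fold the counts were 600, 231, 202 and 285. Genes 1.5-fold apart numbered 378 in mural-like cells with few microglia marker UMIs, 701 in astrocyte-like cells with few pericyte marker UMIs, and 383 (mural-like) and 312 (astrocyte-like) in thinned cells, where fewer genes were tested (1415, 3427, 1592 and 1849). The members 1.5-fold apart in microglia-like cells numbered 1 rather than 2 with cells weighted equally, free RNA subtracted, few pericyte marker UMIs, thinned cells or a fold of 2. The remaining 39 recomputed counts stayed within 1.5 times, among them 521 genes in mural-like cells without subcluster 1. No paired analysis was possible because each group had 1 library. Depth limits endothelial-like, border macrophage-like and erythroid-like cells, where a member had 0 to 99 UMIs.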
